A study of Homo sapiens with 6 samples.

Results

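The CDK inhibitor genes encode the proteins that bind cyclin-dependent kinases (CDKs) and hold the cell cycle in G1. They were taken from the deposited counts by gene symbol as CDKN1A, CDKN1B, CDKN1C, CDKN2A, CDKN2B, CDKN2C and CDKN2D, which are 7 of the 24462 symbols in the files. All 7 passed the filter on low counts, as did 16314 symbols in all. PC3 cells, a line from a bone metastasis of human prostate cancer, had received either a non-targeting siRNA (si-Control, n = 3) or siRNA against CITED2 (si-CITED2, n = 3), each at 80 nM for 72 h. The same parental line, the same serum-containing RPMI medium and the same siRNA dose were used in both groups. The labels speak of CITED2 siRNAs in the plural while the methods of the study list a single sequence, and all libraries come from 1 cell line. CITED2 is a nuclear protein that binds the acetyltransferases p300 and CBP, and the comparison asks which mRNAs differ after siRNA against it.

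The mRNA of the target did not follow the labels. CITED2 was counted 966, 1108 and 657 times in the 3 libraries labelled si-Control and 893, 964 and 898 times in the 3 labelled si-CITED2. After normalization the level was 841 ± 61.4 (SD, n = 3) and 996 ± 82.4 normalized counts (SD, n = 3), without overlap between the groups (log2 fold change 0.24 with a standard error of 0.074, adjusted p = 0.0363 in the quasi-likelihood test of edgeR). It no longer passed without si-Control replicate 1 (0.25), si-Control replicate 3 (0.18), si-CITED2 replicate 1 (0.17) or si-CITED2 replicate 3 (0.25). The counts thus show no loss of CITED2 mRNA, and every direction given here is that of libraries labelled si-CITED2 relative to libraries labelled si-Control. These files hold no protein measurement. The study names an immunoblot of CITED2 as its own check of the knockdown, which is not analysed here.

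Total counts ranged from 19508925 to 28936374 per library, so that the smallest level taken as detectable, 3 counts, lay between 0.104 and 0.154 CPM, that is, counts scaled to the library size. The epithelial markers (EPCAM, KRT8, KRT18, KRT19, CDH1 and ITGA6) were counted in every library, with summed levels of 47723 to 50114 normalized counts in si-Control, against 51952 to 55911 in si-CITED2. They did not move together, since KRT8, KRT18 and ITGA6 were higher and EPCAM and CDH1 lower in si-CITED2. KLK2 and FOLH1, which mark androgen-dependent prostate lines, were at 0 in all 6 libraries. Of other cell types, 1 of 6 leukocyte and 1 of 6 stromal markers had enough counts to be tested and did not pass, and 0 of 4 endothelial markers could be tested. Of the 5 erythroid markers, 3 were tested, and all 3 (HBA1, HBA2 and HBB) were higher in si-CITED2, with a summed level of 3.53 to 9.66 normalized counts in si-Control, against 116 to 142 in si-CITED2. HBB was at 0 in every si-Control library. The part of these transcripts in the results was not tested.

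CDK inhibitors fall into 2 families. The CIP/KIP proteins p21 (CDKN1A), p27 (CDKN1B) and p57 (CDKN1C) bind whole cyclin-CDK complexes and block above all the kinase CDK2, which works with cyclins E and A. The INK4 proteins p16 (CDKN2A), p15 (CDKN2B), p18 (CDKN2C) and p19 (CDKN2D) are built of ankyrin repeats and bind CDK4 and CDK6 alone, which keeps these kinases from cyclin D. With the CDKs blocked, the retinoblastoma protein stays unphosphorylated and holds back the E2F factors that drive genes of DNA replication. TGF-beta is known to arrest epithelial cells partly through p15 and p21.

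The sequences before the start sites of CDKN1A, CDKN2B and CDKN2C are shown, because CDKN1A and CDKN2C were the inhibitor genes whose mRNA passed the test and CDKN2B is the other classical TGF-beta target. Each is the stretch of 250 bases directly upstream of a RefSeq start site (GRCh38.p14). Capitals mark matches on either strand to the GC box bound by SP1 (GGGCGG) and to the core of the SMAD-bound CAGA box (CAGAC). CDKN2C has 3 annotated starts, and the stretches before all of them are printed.
CDKN1A (chr6:36678464-36678713, plus strand): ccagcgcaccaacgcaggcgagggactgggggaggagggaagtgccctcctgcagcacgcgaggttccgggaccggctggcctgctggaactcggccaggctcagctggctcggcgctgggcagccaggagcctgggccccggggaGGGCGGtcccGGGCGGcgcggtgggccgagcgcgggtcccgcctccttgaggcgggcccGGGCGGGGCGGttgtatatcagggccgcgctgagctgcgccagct
CDKN2B (chr9:22009306-22009555, minus strand): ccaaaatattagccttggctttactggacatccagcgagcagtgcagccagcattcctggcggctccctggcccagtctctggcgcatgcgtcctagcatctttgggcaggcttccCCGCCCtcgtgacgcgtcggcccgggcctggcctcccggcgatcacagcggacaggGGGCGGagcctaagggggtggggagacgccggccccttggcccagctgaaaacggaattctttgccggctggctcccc
CDKN2C, first start (chr1:50960495-50960744, plus strand): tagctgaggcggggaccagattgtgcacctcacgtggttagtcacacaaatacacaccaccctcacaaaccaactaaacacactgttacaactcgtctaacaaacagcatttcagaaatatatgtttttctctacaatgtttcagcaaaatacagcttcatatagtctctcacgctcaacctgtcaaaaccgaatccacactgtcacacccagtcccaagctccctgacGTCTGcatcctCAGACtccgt
CDKN2C, middle start (chr1:50968456-50968705, plus strand): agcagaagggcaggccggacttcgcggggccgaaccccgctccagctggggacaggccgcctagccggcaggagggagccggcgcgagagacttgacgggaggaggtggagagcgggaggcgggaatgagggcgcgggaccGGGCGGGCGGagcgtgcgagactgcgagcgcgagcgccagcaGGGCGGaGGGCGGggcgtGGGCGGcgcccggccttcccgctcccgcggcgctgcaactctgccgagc
CDKN2C, last start (chr1:50969995-50970244, plus strand): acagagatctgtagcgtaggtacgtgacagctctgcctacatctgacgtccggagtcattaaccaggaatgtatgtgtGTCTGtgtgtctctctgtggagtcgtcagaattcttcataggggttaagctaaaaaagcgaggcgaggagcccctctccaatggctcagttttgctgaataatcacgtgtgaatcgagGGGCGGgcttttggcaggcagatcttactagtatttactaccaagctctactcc
The CDKN1A stretch held 4 GC box matches and 0 CAGA matches, and 76.4% of its bases were G or C. CDKN2B held 2 GC box matches and 0 CAGA matches. The first CDKN2C start held 2 CAGA matches and 0 GC box matches. The middle CDKN2C start held 5 GC box matches, some of which overlap, and the last start held 1 GC box and 1 CAGA match. Of 35116 RefSeq start sites with a stretch of this length, 42.6% held a GC box and 38% a CAGA match, so neither is rare. Promoter entries were found for 6 of the 7 genes. Over their 9 stretches, 0 held the FOXO letters GTAAACA, the E2F letters TTTCGCGC or TTTGGCGC, or the AP-2 letters GCCNNNGGC, which were found in 2.98%, 0.968% and 19.8% of all stretches. The E-box CACGTG (6.34% of all stretches) was found before the first and the last CDKN2C starts. A match is a description of the letters only, and the counts cannot tell which start was in use.

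Among the 7 inhibitor mRNAs, CDKN1A rose about 4-fold in si-CITED2 and CDKN2C fell to 0.745 of its level, while the other 5 did not pass the test. Over all genes tested, 9.36% were called higher and 8.09% lower at an adjusted p under 0.05, against 1 higher and 1 lower of the 7 inhibitors, which is near the background in number. Here and below, "rose" and "fell" are used of genes that passed this test. Counts of called genes in the lists below are to be read beside these same shares. The median log2 fold change of the 7 was 0.07, beside -0.001 over all genes tested. The groups did not overlap in 4 of the 7 genes, 2 higher and 2 lower in si-CITED2, where 16.4% and 16.1% of all genes tested were separated in these directions.

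CDKN1A, which encodes p21, had 512, 510.4 and 477 normalized counts in si-Control replicates 1, 2 and 3, and 2116, 2109.7 and 1984 in si-CITED2 replicates 1, 2 and 3. The 3 si-CITED2 libraries lay close together and far above the 3 si-Control libraries, and the means of 499.6 ± 20.02 and 2070.1 ± 74.5 (SD, n = 3) differed by far more than either SD. The fold change was 4.13 (95% confidence interval 3.78 to 4.53), or 2.05 on the log2 scale with a standard error of 0.062 (adjusted p = 4.64e-13 in the quasi-likelihood test of edgeR). Of the 16314 genes tested, 66 had a larger log2 fold change, which is 0.405%. In bulk RNA, more cells that make p21 mRNA and more p21 mRNA per cell cannot be told apart. Leaving out each library in turn gave log2 fold changes from 2.02 to 2.08.

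CDKN1B encodes p27, whose amount is known to be set mostly by protein breakdown. Its levels were 569, 520.1 and 515 normalized counts in si-Control, against 453, 445 and 489.7 in si-CITED2. All 3 si-CITED2 values were below the si-Control values, and the gap between the nearest libraries of the groups was close to the SDs of 29.6 in si-Control and 23.8 in si-CITED2. The fold change of 0.864 (95% confidence interval 0.768 to 0.972) did not pass the test over all genes (adjusted p = 0.0845 from edgeR). CDKN1C, the imprinted gene of p57, was the lowest of the 7 mRNAs, with 20.4, 21.7 and 23.5 normalized counts in si-Control, against 44.9, 35.4 and 29.6 in si-CITED2. The groups did not overlap, yet the si-CITED2 libraries spread widely, and the fold change of 1.67 (95% confidence interval 1.12 to 2.48) did not pass (adjusted p = 0.0748 from edgeR). It rests on 20 to 37 counts per library.

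**Figure D1:**
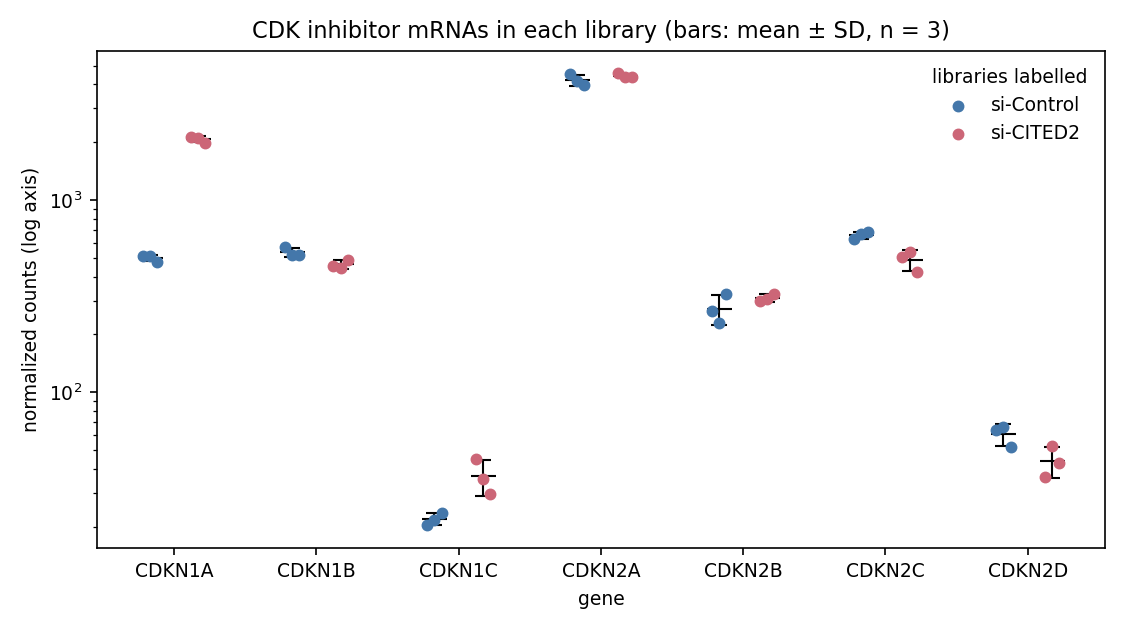
Normalized counts (log axis) of the 7 CDK inhibitor mRNAs in each of the 6 libraries, with blue points for si-Control, red points for si-CITED2 and bars for mean ± SD (n = 3). CDKN1A moves from about 500 to about 2070 normalized counts with no overlap, CDKN2C moves down, and CDKN2A and CDKN2B overlap between the groups.

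Of the INK4 genes, CDKN2C passed the test. This gene of p18 had 628, 665 and 681 normalized counts in si-Control, against 508, 538 and 423 in si-CITED2. The groups did not overlap, and si-CITED2 replicate 3 was the lowest library. The fold change was 0.745 (95% confidence interval 0.655 to 0.848), or -0.42 on the log2 scale with a standard error of 0.088 (adjusted p = 0.00254 from edgeR), and it lay between -0.50 and -0.33 when each library was left out in turn. Of all genes tested, 4.63% had a smaller log2 fold change.

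CDKN2A was the most abundant inhibitor mRNA, with 4509, 4187 and 3955 normalized counts in si-Control, against 4563, 4387 and 4349.5 in si-CITED2. The groups overlapped and the difference was smaller than the spread in si-Control. The fold change was 1.05, and its 95% confidence interval of 0.971 to 1.14 gives the range of changes that the data allow (adjusted p = 0.431 from edgeR). CDKN2A makes p16 and, from another first exon and reading frame, the protein ARF, and a count per symbol does not separate these transcripts. For CDKN2B, which encodes p15, the values were 264, 229 and 324 normalized counts in si-Control, against 298, 305 and 326 in si-CITED2. The si-Control libraries spread more widely than the si-CITED2 libraries, with coefficients of variation of 17.6% and 4.87%, and the groups overlapped. The fold change was 1.15 (95% confidence interval 0.962 to 1.37, adjusted p = 0.305 from edgeR), so that a 4-fold rise like that of CDKN1A lies outside the interval. CDKN2A and CDKN2B are paralogs and both overlap the antisense gene CDKN2B-AS1 in GENCODE 29, and how shared reads or strand were treated is not given in the sources used here. CDKN2D, the gene of p19, had 64, 66 and 51.8 normalized counts in si-Control, against 36.4, 52.6 and 42.7 in si-CITED2. Its groups overlapped by a single value, and the fold change of 0.726 (95% confidence interval 0.531 to 0.992) did not pass (adjusted p = 0.16 from edgeR).

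**Figure D2:**
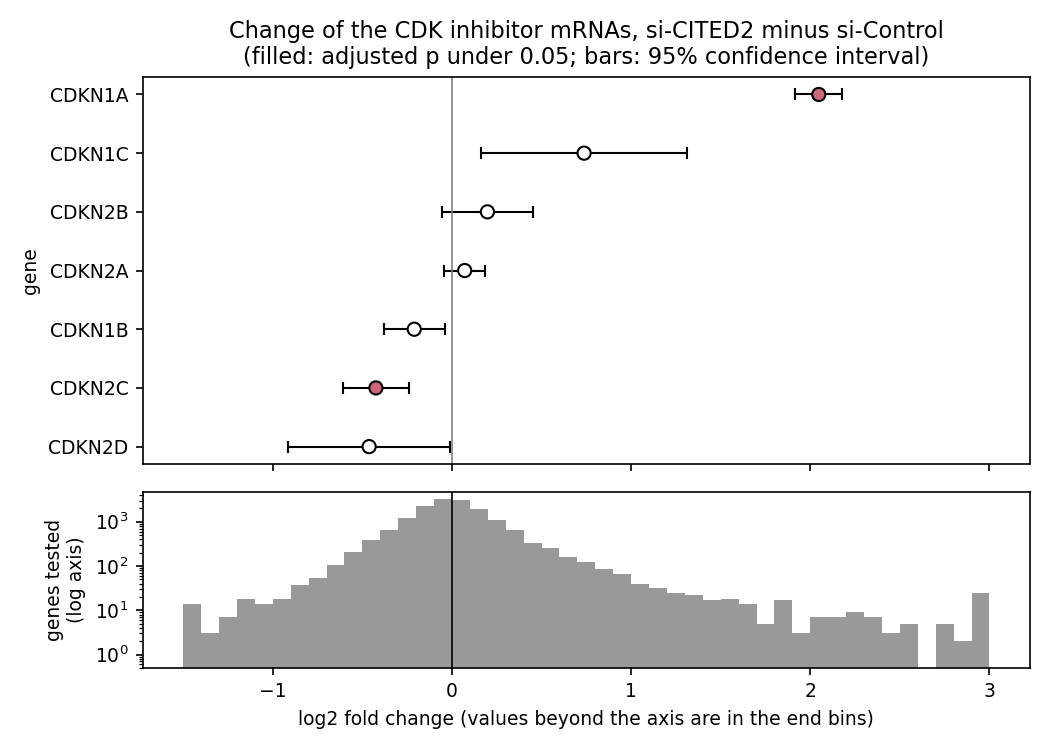
Log2 fold changes of the 7 CDK inhibitor mRNAs (upper panel, si-CITED2 minus si-Control, bars for the 95% confidence interval, filled where the adjusted p is under 0.05) above the distribution of all 16314 genes tested (lower panel, log axis). CDKN1A stands at 2.05, in the far upper tail, and CDKN2C at -0.42.

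To compare the genes with each other, normalized counts were divided by the summed exon length of each gene in GENCODE 29. In si-Control, CDKN2A led with 1336 ± 88.1 normalized counts per kb (SD, n = 3). It was followed by CDKN1B at 201.3 ± 11.1, CDKN1A at 199.1 ± 7.98 and CDKN2C at 198.4 ± 8.17, whose ranges overlapped so that their order could not be told. CDKN2B at 67.4 ± 11.9, CDKN2D at 40.3 ± 5.13 and CDKN1C at 11.3 ± 0.799 came below, with no overlap between neighbours. In si-CITED2 the order was CDKN2A at 1404 ± 36.2, CDKN1A at 825 ± 29.7, CDKN1B at 174 ± 8.95, CDKN2C at 148 ± 18.0, CDKN2B at 76.7 ± 3.74, CDKN2D at 29.2 ± 5.41 and CDKN1C at 18.8 ± 3.99 normalized counts per kb, and no neighbours overlapped. Another exon length as divisor would change the level per kb of a gene but not its fold change. The annotation behind the counts is not given in the sources used here. It decided which reads were counted for a gene, so another one could change both.

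Within each library, the ratio of CDKN1A to CDKN1B per kb was 0.953, 1.04 and 0.979 in si-Control, against 4.95, 5.02 and 4.29 in si-CITED2. The share of CDKN1A in the CIP/KIP mRNAs went from 47.6% to 49.6% in the si-Control libraries to 79.9% to 81.9% in the si-CITED2 libraries. CDKN2A exceeded CDKN1A by 6.52 to 7 times in si-Control and by 1.65 to 1.74 times in si-CITED2. The summed level of the 4 INK4 mRNAs overlapped between the groups. It was 1573 to 1726 normalized counts per kb in si-Control and 1615 to 1696 in si-CITED2. Most of this sum was CDKN2A, at 1253 to 1428 in si-Control and 1378 to 1445 in si-CITED2. The sum therefore says little of CDKN2C, which fell. The summed level of the 3 CIP/KIP mRNAs was 396 to 429 in si-Control and 990.4 to 1037 in si-CITED2.

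**Figure D3:**
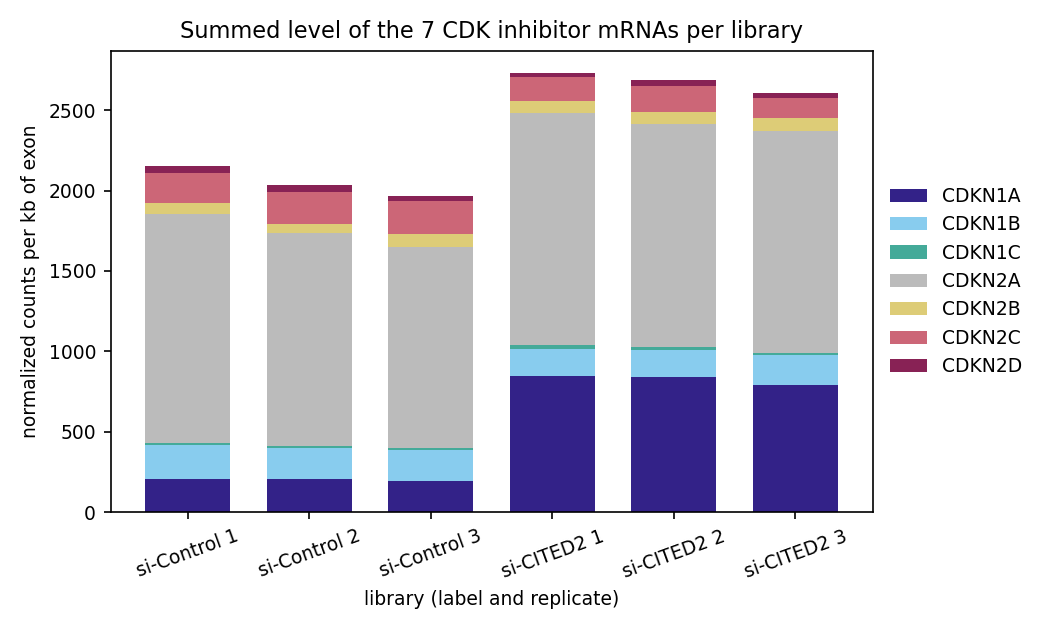
Stacked normalized counts per kb of exon of the 7 CDK inhibitor mRNAs in each library. The CDKN1A segment makes up 9.47% to 9.98% of the stack in the si-Control libraries and 30.4% to 31.3% in the si-CITED2 libraries, and CDKN2A is the largest segment in every library.

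The kinases and cyclins that the inhibitors bind moved in both directions. Of 10 listed genes, 9 were tested, 3 were higher and 3 lower in si-CITED2, and the median log2 fold change was 0.0006. CCNE1, the gene of cyclin E1, rose from 579.9 ± 16.7 to 983 ± 79.2 normalized counts (SD, n = 3), and CDK6, a kinase bound by the INK4 proteins, rose from 638 ± 14.4 to 991 ± 117. CCND1, the gene of cyclin D1, rose 1.32-fold. CDK4, the other INK4 partner, fell to 0.845 of its si-Control level, CCNA2 to 0.747 and CCNA1 to 0.616, all at an adjusted p under 0.05 from edgeR. Without si-Control replicate 1, CCNA1 no longer passed (log2 fold change -0.52). CDK2, the main kinase target of p21, had 1845 ± 45.1 and 1741 ± 25.5 normalized counts (SD, n = 3) and did not pass (adjusted p = 0.316 from edgeR).

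Downstream of these kinases, 13 genes of the pocket proteins and E2F factors were tested, and 1 was higher and 5 lower (median log2 fold change -0.06). RB1, the gene of the retinoblastoma protein, had 1660.4 ± 23.5 and 1676 ± 63.9 normalized counts (SD, n = 3, adjusted p = 0.912 from edgeR). E2F8 fell to 0.672, E2F2 to 0.677 and E2F1 to 0.808 of the si-Control level, and E2F3 rose 1.18-fold. The call on E2F1 was lost without si-CITED2 replicate 2 (log2 fold change -0.28). E2F3 lost its call without si-Control replicate 2 (0.23) or 3 (0.22), or without si-CITED2 replicate 2 (0.19) or 3 (0.22), which leaves 0 or 1 of the 13 genes higher, and 2 with a minimum of 10 counts in every library.

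The E2F targets and proliferation genes moved together. Of 22 listed genes, 20 were lower in si-CITED2, 0 were higher and 2 did not pass, with a median log2 fold change of -0.34 beside -0.001 over all genes. The falls were modest, the largest being that of CDC45, a helicase subunit at replication forks, from 2343 ± 91.1 to 1481 ± 18.3 normalized counts (SD, n = 3), and that of RRM2, which makes deoxynucleotides, from 8936 ± 139.9 to 5729 ± 184. MKI67, the gene of the proliferation marker Ki-67, fell to 0.746 and PCNA, the sliding clamp of DNA polymerase, to 0.842 of the si-Control level (adjusted p = 2.9e-05 and 0.00546 from edgeR). UHRF1 and MCM6 were the 2 genes that did not pass, at 1.04 and 0.921 of the si-Control level, and are named after their values were seen. The number of lower genes was between 18 and 20 in the alternative fits, and 0 were higher in any. In its own assays of cultured prostate cancer cells, the study reported no effect of CITED2 on growth or viability. In mice, it reported that PC3 tumours implanted in the prostate grew more slowly after CITED2 was knocked down with shRNA. The files used here hold no measurement of cell number, and a change in proliferation was not tested.

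**Figure D4:**
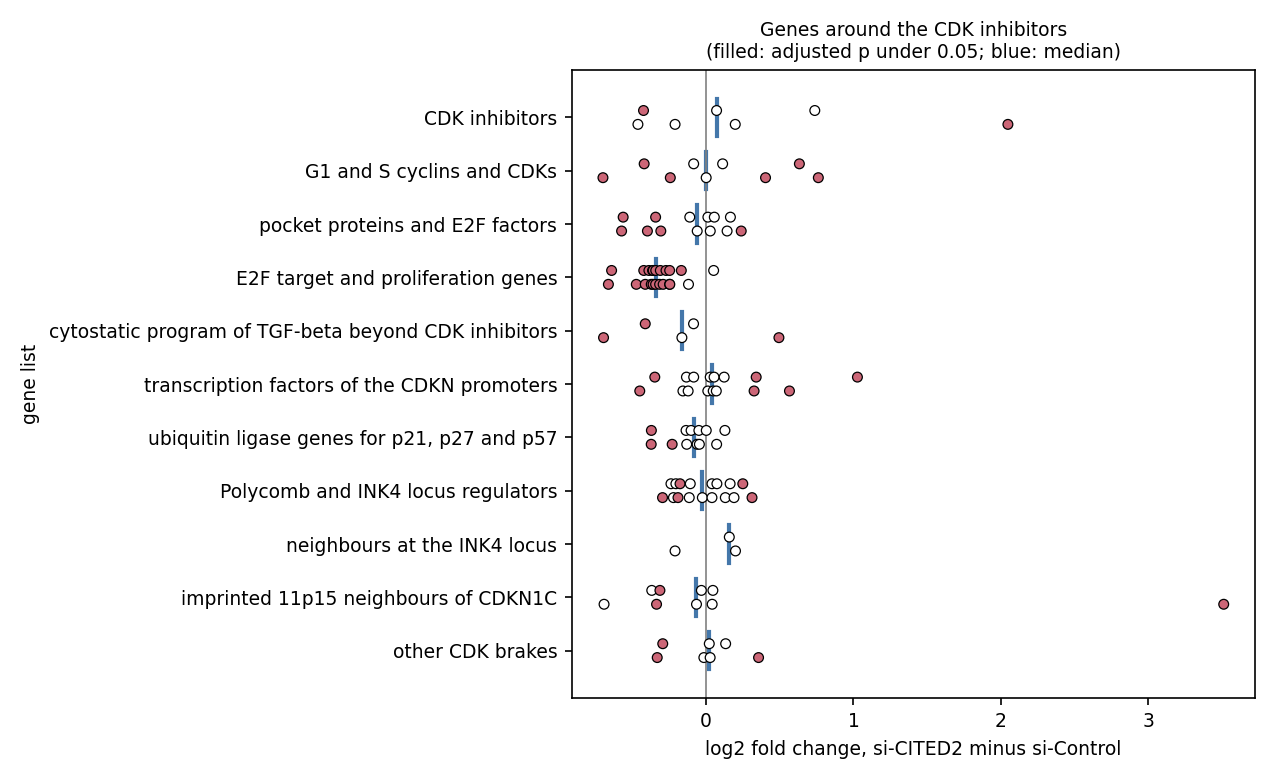
Log2 fold changes of the genes in each list, with filled points at an adjusted p under 0.05 and a blue line at the median of the list. Of the 11 lists, the E2F targets and proliferation genes lie almost wholly below 0 (20 of 22 lower), while CDKN1A at 2.05 stands apart from the other inhibitors.

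TGF-beta arrests epithelial cells by lowering MYC, the ID genes and CDC25A as well as by raising p15 and p21. Of 6 such genes, 5 were tested, 1 was higher and 2 lower. MYC had 1351 ± 12.5 and 1205 ± 53.2 normalized counts (SD, n = 3), a log2 fold change of -0.16 that did not pass (adjusted p = 0.0604 from edgeR) except when libraries were scaled by total count alone (-0.18, adjusted p = 0.0385). ID1 fell to 0.617 of its level and ID3 rose 1.41-fold. The phosphatase gene CDC25A, which is also among the 22 proliferation genes, fell to 0.751.

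Among 17 listed transcription factors known to act on CDKN promoters, 16 were tested, 4 were higher and 2 lower (median log2 fold change 0.04). ETS1 rose 2.04-fold, from 1576 ± 99.1 to 3209 ± 64 normalized counts (SD, n = 3), and ETS2 rose 1.48-fold. SMAD3, a signal transducer of TGF-beta, rose 1.27-fold, whereas SMAD4 was at 1.03 of its si-Control level and did not pass (adjusted p = 0.64 from edgeR). TFAP2A, the gene of AP-2 alpha, with which CITED2 works as a coactivator, fell to 0.732, and KLF6, an activator of CDKN1A, to 0.786.

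Genes of the ubiquitin ligases that remove p21, p27 and p57 did not pass as higher in any case, with 3 of 12 lower, 9 that did not pass and a median log2 fold change of -0.08. SKP2 and its cofactor CKS1B, which mark p27 for breakdown, fell to 0.853 and 0.773 of their si-Control levels, and DTL, the receptor that marks p21 in S phase, fell to 0.773. All 3 kept an adjusted p under 0.05 from edgeR in each fit that left out a library.

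Polycomb proteins silence the INK4 locus, and CITED2 has been linked to them in fibroblasts through BMI1 and PCGF2. Of 17 listed regulators, 2 were higher and 3 lower (median log2 fold change -0.03), beside 9.36% and 8.09% of all genes tested. BMI1 fell from 5072 ± 23.4 to 4131 ± 134 normalized counts (SD, n = 3, adjusted p = 0.000271 from edgeR), whereas PCGF2 had 1569 ± 112 and 1615 ± 45.3 and did not pass (adjusted p = 0.729). KDM6B, a demethylase that removes the Polycomb mark, rose 1.24-fold and RING1 rose 1.19-fold, and PHC2 fell to 0.876. RING1 lost its call without si-Control replicate 1 (log2 fold change 0.24) or 3 (0.22), or without si-CITED2 replicate 2 (0.20) or 3 (0.27), which leaves 1 regulator higher. PHC2 lost its call without si-Control replicate 3 (-0.17), si-CITED2 replicate 1 (-0.16) or si-CITED2 replicate 2 (-0.20).

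At the INK4 locus itself, 0 of 3 neighbours passed. The antisense RNA gene CDKN2B-AS1, known as ANRIL, had 90.1 ± 13 and 78.2 ± 14.5 normalized counts (SD, n = 3, adjusted p = 0.498 from edgeR). MTAP, an enzyme gene often lost together with CDKN2A in tumours, had 1411 ± 33.9 and 1572 ± 64.7 (adjusted p = 0.0655 from edgeR) and passed as higher without si-CITED2 replicate 1 (log2 fold change 0.19). CDKN2A, CDKN2B and MTAP all had reads in each of the 6 libraries.

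The genes most like CDKN1A over the 6 libraries, by Pearson's correlation of log2 CPM among 12050 genes with at least 100 normalized counts on average, were FSTL3 (0.9998), TPM1 (0.9995) and COL4A2 (0.9995), which encode a secreted activin-binding protein, a tropomyosin and a basement membrane collagen. Their log2 fold changes were 1.81, 1.71 and 1.88. For CDKN2C they were NUPL1 (0.9963), C15orf41 (0.9935) and SYNE3 (0.9931), with log2 fold changes of -0.14, -0.28 and -0.66. NUPL1 did not pass the test (adjusted p = 0.072 from edgeR), except when libraries were scaled by total count alone (-0.15), and C15orf41 lost its call without si-Control replicate 2 (-0.29) or 3 (-0.25) or si-CITED2 replicate 3 (-0.21). With 2 groups of 3 libraries, these values are a description that rests mostly on the difference between the groups.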

How the data were processed

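RNA was extracted with Trizol and libraries were made with a SMARTer mRNA-seq kit. The deposited files, 1 per library, hold raw read counts for each gene symbol, to which the authors applied no normalization. The submitters' processing notes name TopHat, edgeR and the build hg19, without roles. The counting program, annotation, strand setting and filters are not given in the sources used here. The labels do not say whether the 3 libraries of a group came from separate cultures, while a legend of the study calls the experiments independent. If they did not, p-values measure technical spread. Libraries of a group were not duplicates of each other: within a group, the lowest chi-square between library pairs was 2.8 per degree of freedom.

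Where a symbol had several rows (286 symbols), only the row with the highest count entered the tables, and 0.0821% of all counts were dropped. Counts were filtered with filterByExpr, normalized by TMM and tested without a block by the quasi-likelihood test of edgeR 4.0.16 in R 4.3.3, with Benjamini-Hochberg adjustment over all 16314 genes tested. Calls were made at an adjusted p under 0.05. Normalized counts were obtained by scaling each library to the mean effective library size after TMM. Standard errors were derived from the F statistic and intervals are at 95% confidence. For log2 CPM the prior count was 2. The script was checked on simulated counts. Groups and replicate numbers came from the sample titles. Deviations from the group means were unrelated between libraries that share a number (Pearson's r across genes of -0.038, 0.0336 and -0.0109 for numbers 1, 2 and 3). Alternatives were the replicate block, each library left out in turn, DESeq2 1.42.0, RLE factors, total library size, other filters on low counts and summed rows of a symbol.

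The named genes were the 7 inhibitors, CITED2, up to 2 rises and 2 falls per pathway list among called genes, a fixed set of pathway genes, and the 3 genes most like each called inhibitor. Some listed genes are not reported here. Members and lists were chosen with earlier results of these data known. Motifs were searched on both strands of the 250 bases before each RefSeq start. With 3 libraries against 3, an exact permutation test of a single value cannot give a p below 0.1, so none was used.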

Additional observations from a re-analysis of the deposited data

How the results depend on the processing

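The direction and the call of each of the 7 inhibitor genes were the same in all 13 alternative fits. CDKN1A stayed between 2.02 and 2.08 on the log2 scale and CDKN2C between -0.50 and -0.33, both past the test in 13 of 13. The other 5 passed in 0 of 13, the lowest adjusted p from any of these fits being 0.0534 for CDKN1C with a minimum of 10 counts in every library. CDKN2B moved from 0.20 to 0.081 without si-Control replicate 2 and to 0.33 without si-Control replicate 3, and CDKN2A ranged from 0.027 to 0.12. The number of genes called ranged from 1135 to 1595 higher and from 881 to 1530 lower. With the replicate number as a block, 1405 genes were higher and 1154 lower, CDKN1A was at 2.05, CDKN2C at -0.43 and CITED2 at 0.24, and no call on an inhibitor changed. Libraries that share a replicate number showed no shared deviation from their group means. This does not tell whether they were made together. CITED2 ranged from 0.173 to 0.291 without single libraries, and scaling by total library size gave 0.221, which did not pass. Directions that turned were all of genes that did not pass in any of these fits. RB1 was at -0.0049 with total library size and ranged from -0.0201 to 0.0337 without single libraries. KCNQ1OT1 ranged from -0.0393 to 0.0886 and PCGF2 from -0.0145 to 0.0859 without single libraries. The cause was not tested. Scaling by total library size moved the median log2 fold change of all genes to -0.018. CDKN1C and CDKN2D rest on 20 to 82 counts per library, and their 95% confidence intervals are the widest of the 7.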

Other observations

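CDKN1C lies in the imprinted cluster at 11p15, and its neighbours did not move as a block. Of 9 listed neighbours, all were tested, 1 was higher and 2 were lower, with a median log2 fold change of -0.07. Among all genes tested, 9.36% were called higher and 8.09% lower. IGF2, a growth factor of that cluster, rose 11.4-fold in the libraries labelled si-CITED2, from 30.2 ± 4.37 to 351 ± 8.63 normalized counts (SD, n = 3). KCNQ1OT1, the long RNA that silences CDKN1C on the paternal copy, had 7423 ± 48.3 and 7667 ± 756 normalized counts (SD, n = 3) and did not pass (adjusted p = 0.677 from edgeR). PHLDA2, a growth-restraining gene beside CDKN1C, fell to 0.805 of its si-Control level and TSSC4 to 0.792. TSSC4 lost its call without si-Control replicate 1 (log2 fold change -0.35) or 2 (-0.28), or without si-CITED2 replicate 1 (-0.36) or 3 (-0.25). PHLDA2 lost its call without si-Control replicate 2 (-0.28) or si-CITED2 replicate 3 (-0.21), so that 0 neighbours were lower without si-Control replicate 2 or si-CITED2 replicate 3.

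Brakes on CDKs outside the CIP/KIP and INK4 families also moved in both directions. Of 7 listed genes, 1 was higher, 2 were lower and 4 did not pass, with a median log2 fold change of 0.02. The shares over all genes tested were 9.36% higher and 8.09% lower. CDK2AP2, a CDK2-associated protein gene, rose 1.28-fold, from 620.9 ± 38.4 to 796 ± 38.9 normalized counts (SD, n = 3). PKMYT1, a kinase that holds CDK1 inactive, fell from 1096 ± 28.5 to 871 ± 32.2, and CDKN3, a phosphatase of CDKs that shares the gene prefix but no family with the 7 inhibitors, fell from 3240.0 ± 216 to 2643 ± 110.3. Without si-Control replicate 1 the number of genes higher was 2.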
